A study of Mustela putorius furo with 2 samples.

Results

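The S phase genes are a list of 40 genes whose RNA is commonly used to recognise cells that are copying their DNA. A gene of the list was kept as a member when the deposited matrix held at least 1 UMI (unique molecular identifier, 1 counted RNA molecule) of it, which left 38 of 40. The matrix holds UMIs of 21317 gene names. NASP, a histone chaperone gene, and SLBP, whose protein binds histone messenger RNA, were listed at 0 UMIs in every cell and have no value here. The 38 members held 90949 of 60743615 UMIs, or 0.150%.

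The series is single-cell RNA sequencing (10x Genomics Chromium) of dorsal cortex from wild-type ferret pups at postnatal day 3, a carnivore with a folded cortex whose neurons and glia are still being made at that age. Tissue was dissociated with papain, and the labels give 2 replicates of this 1 group. All samples are wild-type, so the comparisons set cell classes against each other within the same 2 libraries. The libraries are told apart by a barcode suffix and are called library A and library B. Neither the match of suffix to replicate nor the animal behind each replicate is given in the labels. P-values between classes thus measure only the spread between these 2 libraries, which may be technical. For the steps between bins of G2 and M UMIs over the 3 progenitor classes, below, differences between classes of the same library also enter the spread.

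Replication is licensed in G1, when the MCM helicase is loaded onto origins with the help of CDC6, and it starts when CDC45 and the GINS complex turn the helicase on. DNA is then primed and copied behind a sliding clamp, nucleotides are supplied by dedicated enzymes, and new chromatin is assembled on both daughter strands. Many of these genes are transcribed by E2F factors at the G1 to S transition, so their RNA precedes or accompanies DNA synthesis and falls as cells move on to G2. In the developing cortex such cells are radial glia, intermediate progenitors that make neurons, and glial progenitors. Neurons have left the cell cycle. The roles given below are those known in human, mouse and yeast.

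Cells were put into classes by marker genes that are not members. EGFR/OLIG1 progenitors held RNA of both EGFR and OLIG1, which mark gliogenic progenitors. HOPX glia held HOPX, an outer radial glia gene, with at least 3 of 5 glial markers. EOMES progenitors held EOMES, the intermediate progenitor transcription factor, with at least 2 UMIs of 4 markers, and excitatory neurons held at least 2 neuronal markers and no EOMES. Inhibitory neurons, endothelial cells and microglia were gated in the same way, and each class name stands for its gate. Of 14773 kept cells, 10391 fell in 1 class. The classes tested below held 185 and 86 EGFR/OLIG1 progenitors, 742 and 386 HOPX glia, 1208 and 503 EOMES progenitors, 59 and 173 endothelial cells, 83 and 84 microglia, 690 and 185 inhibitory neurons and 4045 and 1868 excitatory neurons in libraries A and B.

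Library A held 9782 cells with a median of 3602.5 UMIs, and library B 5005 cells with a median of 3068. They shared 21 barcode sequences. Endothelial cells took more of library B than of library A, as the cell numbers above show. The gates held their defining markers: the 10 excitatory neuron markers summed to 2357 and 2252 CPM (UMIs of a gene scaled to the UMI total of the class) in excitatory neurons, the 6 measured microglia markers to 9841 and 8231 CPM in microglia, and the 7 endothelial markers to 5578 and 5346 CPM in endothelial cells. Markers of other classes were not absent from the gates. The 10 excitatory neuron markers summed to 174 and 186 CPM in EGFR/OLIG1 progenitors, 144 and 149 CPM in HOPX glia and 454 and 431 CPM in EOMES progenitors. The 5 HOPX glia markers summed to 4220 and 4049.6 CPM in HOPX glia, 1835 and 1570.1 CPM in EGFR/OLIG1 progenitors, 267 and 282 CPM in EOMES progenitors and 454 and 441 CPM in excitatory neurons. The part of such RNA in the differences below was not tested.

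Summed over the 38 members, S phase RNA was highest in EGFR/OLIG1 progenitors, at 2804 CPM in library A (95% exact Poisson interval 2700 to 2912) and 3045 CPM in library B. It was 2177 and 1883 CPM in HOPX glia, and 2209 and 2182 CPM in EOMES progenitors. Excitatory neurons held 635 and 732 CPM. The 3 progenitor classes thus lay at 2.57 to 4.42 times the level of excitatory neurons of the same library. Both libraries of HOPX glia lay below both of EOMES progenitors, although in library A their Poisson intervals overlapped (2133 to 2222 CPM and 2173 to 2245 CPM).

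Endothelial cells held 1826 CPM in library A and 1178 CPM in library B, so the libraries differed more within this class than within any progenitor class. Microglia held 706 and 1156 CPM, and inhibitory neurons 883 and 1323 CPM. Both classes stood at 1.11 to 1.81 times the excitatory level of their library. Oligodendrocyte precursors, gated by PDGFRA and SOX10, held 1646 and 2511 CPM in only 36 and 10 cells. Mural and fibroblast cells (19 and 10 cells) held 908 and 1930 CPM. Erythroid cells, with 3 and 1 member UMIs in 4 and 2 cells, and ependymal cells, with 18 and 16 member UMIs in 2 and 11 cells, were too few to read.

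**Figure D1:**
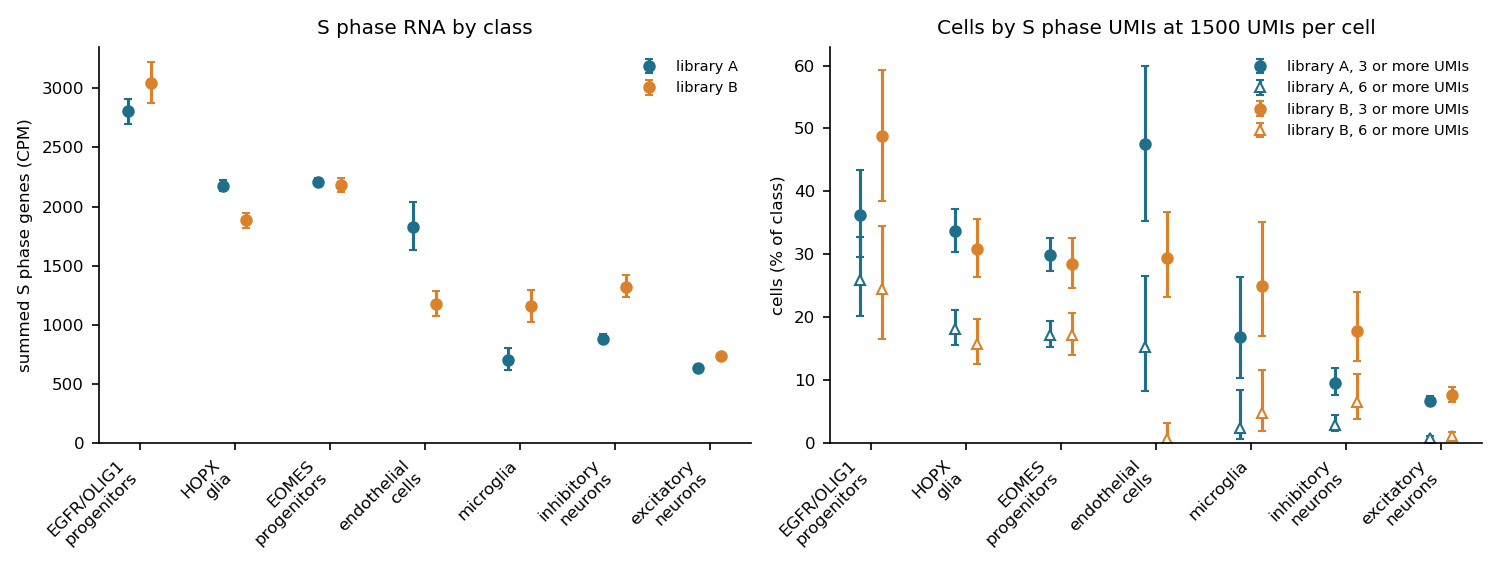
Left, CPM summed over the 38 S phase genes in each class and library, with exact 95% Poisson intervals. Right, percent of cells of each class with 3 or more (circles) or 6 or more (triangles) S phase UMIs after every cell was thinned to 1500 UMIs, with 95% Wilson intervals. Progenitor classes lie above excitatory neurons on both scales, while endothelial cells are high at 3 UMIs and in library B near the excitatory level at 6 UMIs. Intervals cover counting error only.

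To compare single cells at 1 depth, each cell was thinned at random to 1500 UMIs, which no cell fell short of. A cell was then counted as holding S phase RNA with 3 or more member UMIs. By that rule S phase RNA was found in 36.2% (95% Wilson interval 29.6 to 43.4) of EGFR/OLIG1 progenitors of library A and 48.8% (38.6 to 59.2) of those of library B. The share was 33.7% and 30.8% in HOPX glia and 29.9% and 28.4% in EOMES progenitors. A second random thinning gave 41.6% and 41.9% in EGFR/OLIG1 progenitors, so the gap between their libraries depended on the draw. It gave 32.9% and 30.3% in HOPX glia and 29.5% and 29.2% in EOMES progenitors. Excitatory neurons, which should lack S phase RNA, gave 6.70% and 7.60% in the first thinning, 6.60% and 9.74% in the second, and set the background. Their median depth before thinning was 3333 and 2905 UMIs, against 4038 to 5500.5 UMIs in the progenitor classes, and without thinning 28.7% to 31.5% of excitatory neurons and 54.3% to 66.7% of progenitors held 3 or more.

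A higher bar was also set. With 6 or more member UMIs, a number chosen after seeing the data, 25.9% and 24.4% of EGFR/OLIG1 progenitors passed. In HOPX glia it was 18.2% and 15.8%, and in EOMES progenitors 17.2% and 17.1%, against 0.791% and 1.12% of excitatory neurons. Inhibitory neurons reached 9.57% and 17.8% at 3 UMIs and 2.90% and 6.49% at 6 UMIs. In microglia 16.9% of cells in library A and 21 of 84 cells in library B passed at 3 UMIs, and 2.41% and 4.76% at 6 UMIs.

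Endothelial cells gave another pattern. At 3 UMIs they gave 47.5% (35.3 to 60.0) in library A and 29.5% (23.2 to 36.7) in library B, as much as progenitors. At 6 UMIs 15.3% remained in library A (9 of 59 cells) and 0.578% in library B (1 of 173 cells). At 3 UMIs a second random thinning gave 40.7% in library A and 27.7% in library B. Only 17.2% of endothelial cells had no member UMI after thinning, against 43.5% of excitatory neurons. Mitochondrial RNA made up 3.50% and 4.37% of endothelial UMIs, against 1.46% and 1.73% of excitatory UMIs, and median depth was 2322 and 2004 UMIs. The part of these values in the endothelial share was not tested.

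Within excitatory neurons, cells with at least 2 deep-layer markers had S phase RNA in 11.2% (8.47 to 14.7) and 16.8% (11.8 to 23.3) of cases, against 6.21% and 6.74% of the other excitatory neurons. Their summed level was 1009 and 1384 CPM, against 582 and 654 CPM. The 5 markers of that subset also held 112 to 143 CPM in the 3 progenitor classes, so the subset is named by its rule alone.

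S phase RNA was also split by RNA of 34 measured G2 and M genes, none of them members. Among EGFR/OLIG1 progenitors, 17.3% and 27.9% of cells held S phase RNA alone and 18.9% and 20.9% held both kinds. In HOPX glia 18.3% and 19.2% held S phase RNA alone and 15.4% and 11.7% both. EOMES progenitors differed in that split: 11.4% and 10.5% held S phase RNA alone, and 18.5% and 17.9% both. For each cell with 3 or more G2 and M UMIs there were thus 0.640 and 1.04 cells with S phase RNA alone in EGFR/OLIG1 progenitors, 0.814 and 1.09 in HOPX glia, and 0.409 and 0.349 in EOMES progenitors. Both libraries of EOMES progenitors lay below both libraries of each other progenitor class. The shares of this split rest on 1 random thinning. With 2 libraries they carry no test, and no cycling is read from them.

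**Figure D2:**
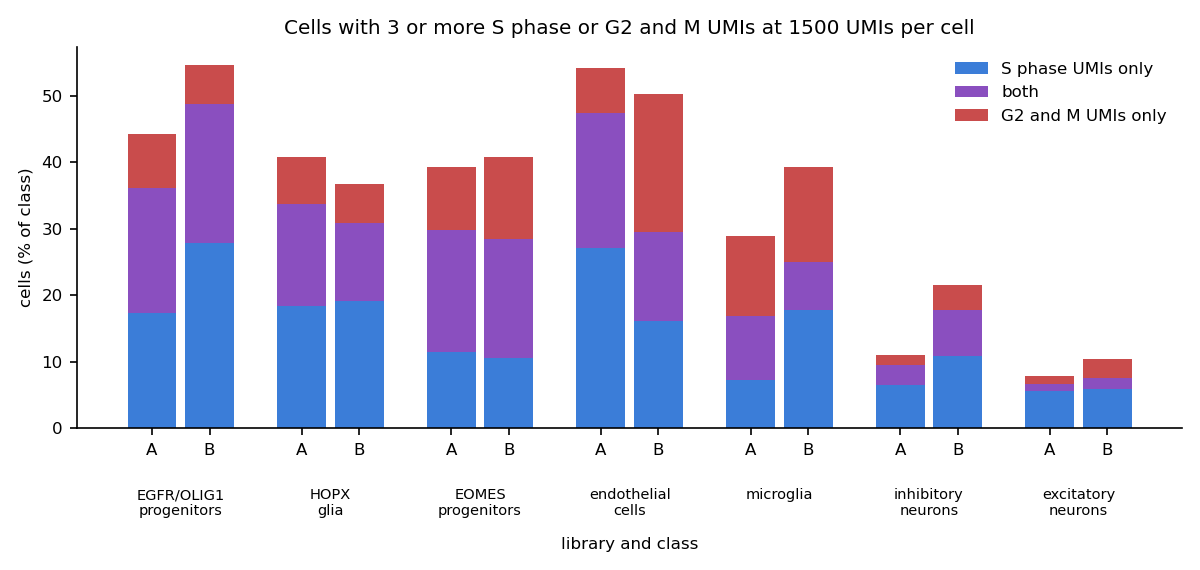
Percent of cells of each class and library with 3 or more S phase UMIs only, with 3 or more UMIs of both lists, and with 3 or more G2 and M UMIs only, each cell thinned to 1500 UMIs. EOMES progenitors have the smallest S-only part of the 3 progenitor classes, 11.4% and 10.5%.

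Against excitatory neurons every progenitor class was higher across nearly the whole list. UMIs were summed per class and library and fitted over all classes with edgeR's quasi-likelihood test and Benjamini-Hochberg adjustment over 13085 genes, with library as a block, and a gene is called at an adjusted p below 0.05. All 38 members passed the filter on low counts. EGFR/OLIG1 progenitors were higher for 37 of 38 members (21.7% of all genes tested were called higher), HOPX glia for 36 (33.4% of all genes) and EOMES progenitors for 38 (20.6%). No member was lower, beside 19.1%, 29.3% and 20.5% of all genes called lower. The median log2 fold change of the members was 2.50, 1.95 and 2.05, against -0.02, 0.02 and -0.03 over all genes tested. These comparisons share the excitatory neurons.

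Among the largest differences were those of helicase and checkpoint genes. CLSPN, which encodes the checkpoint adaptor claspin, had 70.4 and 70.8 CPM in EGFR/OLIG1 progenitors, 46.2 and 38.4 CPM in HOPX glia and 54.4 and 54.9 CPM in EOMES progenitors, against 3.98 and 7.39 CPM in excitatory neurons. Its log2 fold changes were 3.70 ± 0.29 (SE; edgeR adjusted p = 2.29e-10), 3.01 ± 0.22 (1.38e-11) and 3.35 ± 0.20 (1.20e-12). No library of any progenitor class came near the neurons. GINS2, a subunit of the GINS complex, had 43.5 and 56.2 CPM in EGFR/OLIG1 progenitors, 45.5 and 48.5 CPM in HOPX glia and 33.7 and 42.0 CPM in EOMES progenitors, against 3.92 and 3.85 CPM in excitatory neurons. It was 3.51, 3.49 and 3.15 log2 units higher (SE 0.27, 0.17 and 0.17). MCM2 and MCM3, 2 subunits of the helicase ring, CDC45, the gene of the helicase activator, DTL, which encodes a ubiquitin ligase receptor that clears replication factors, and E2F8, a repressor of E2F targets, were 3.63, 3.65, 3.62, 3.51 and 3.47 log2 units higher in EGFR/OLIG1 progenitors.

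Some members held much RNA in neurons too. UBR7, whose protein is a chromatin reader with ubiquitin ligase activity, had 25.9 and 31.7 CPM in EGFR/OLIG1 progenitors, 20.3 and 15.3 CPM in HOPX glia and 23.9 and 27.9 CPM in EOMES progenitors, against 17.8 and 19.9 CPM in excitatory neurons. It was not called in EGFR/OLIG1 progenitors (log2 0.49 ± 0.26, edgeR adjusted p = 0.136) or in HOPX glia (-0.07 ± 0.17, 0.753). BLM, a helicase that unwinds recombination intermediates, was not called in HOPX glia (0.25 ± 0.21, edgeR adjusted p = 0.308). RFC2, a subunit of the clamp loader, had 63.5 and 76.3 CPM in excitatory neurons themselves, against 88.7 to 127 CPM in progenitors.

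Outside the list, 51 of 52 other replication genes were tested. Against excitatory neurons 42 were higher and 1 lower in EGFR/OLIG1 progenitors, 42 higher and 1 lower in HOPX glia, and 44 higher and none lower in EOMES progenitors. Among them were MCM10, an initiation factor, at log2 3.82, 3.32 and 3.57, and in EOMES progenitors CCNA2, the cyclin of S and G2 phase, at 3.78. Of 15 genes that act in G1, 9 were higher and 3 lower in EGFR/OLIG1 progenitors, 9 and 6 in HOPX glia, and 7 and 2 in EOMES progenitors. CCND2, a D-type cyclin gene, was 2.69 and 1.93 log2 units higher in EGFR/OLIG1 progenitors and HOPX glia, and CDKN1C, which encodes the cyclin-dependent kinase inhibitor p57, was 3.38 log2 units lower in HOPX glia.

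**Figure D3:**
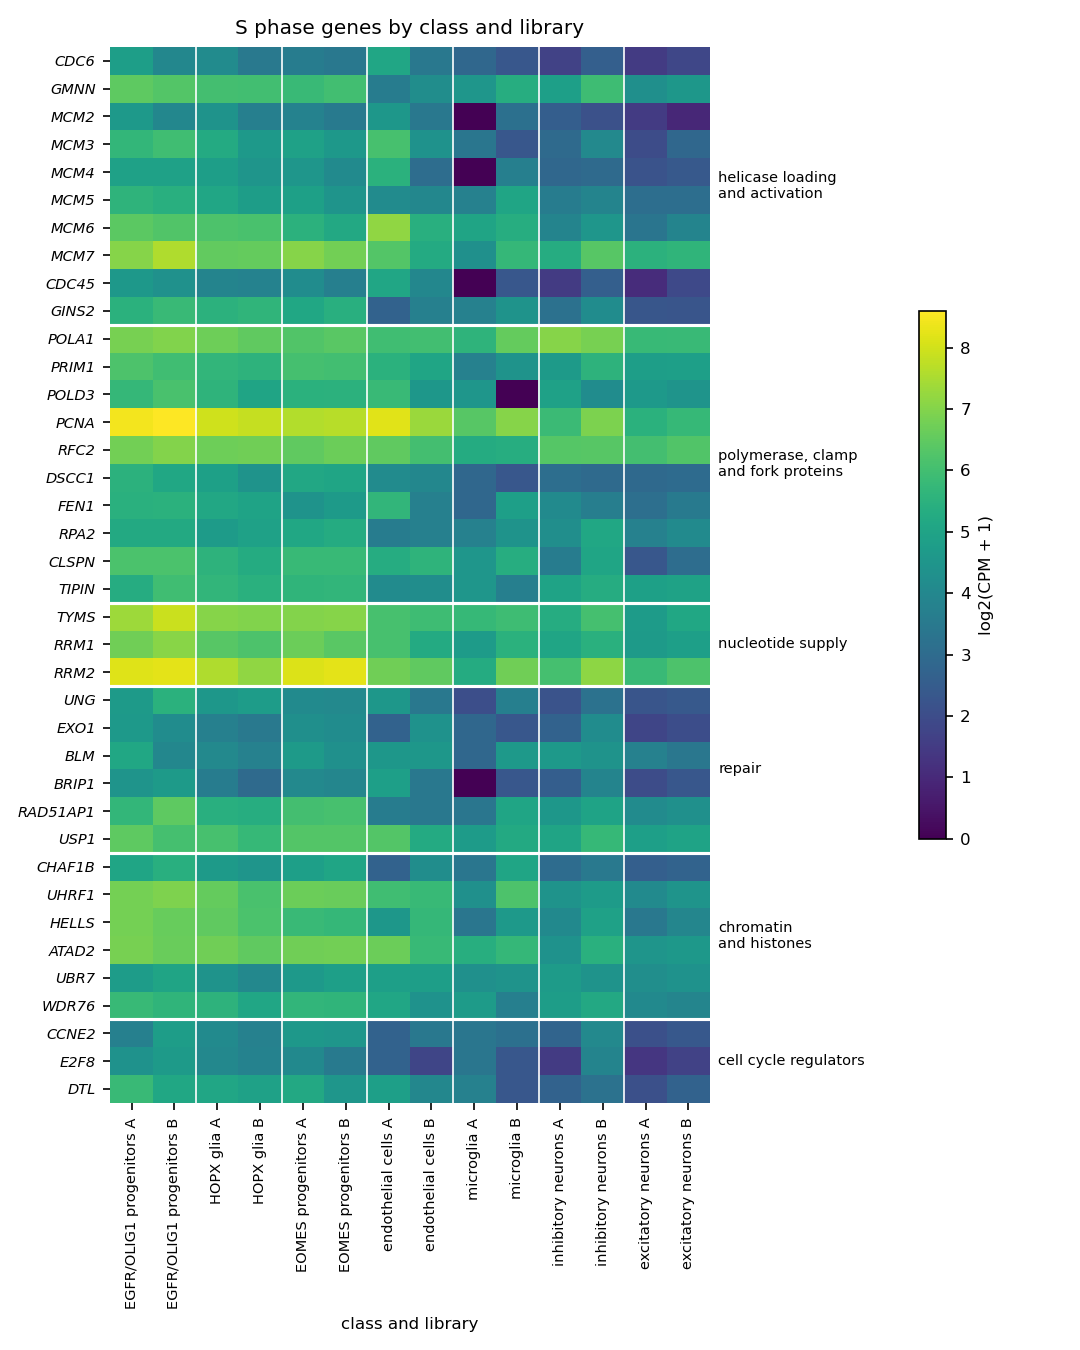
Heat map of log2(CPM + 1) of the 38 S phase genes (rows, grouped by role) in each class and library (columns), with excitatory neurons at the right. Most genes are brightest in EGFR/OLIG1 progenitors and darkest in excitatory neurons. POLA1 in inhibitory neurons and MCM6 in endothelial cells of library A are at least as bright as in HOPX glia.

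By the mean over libraries, 31 of the 38 members were highest in EGFR/OLIG1 progenitors, 3 in EOMES progenitors, 3 in endothelial cells and 1 in inhibitory neurons. HOPX glia, microglia and excitatory neurons led for none. The share of all genes highest in each class is not given, so these counts are a description. The 3 that were highest in EOMES progenitors were USP1, a deubiquitinase of DNA repair, ATAD2, a chromatin ATPase, and CCNE2, which encodes cyclin E2. USP1 had 78.4 and 77.8 CPM in EOMES progenitors, against 87.0 and 65.9 CPM in EGFR/OLIG1 progenitors, so the libraries overlap and the order of these 2 classes is not fixed. The same holds for ATAD2, at 107 and 108 CPM against 113 and 97.7 CPM. The 3 endothelial leads, MCM6, CDC6 and CDC45, rest on the 59 cells of library A. MCM6 had 144 and 42.2 CPM in endothelial cells, against 86.0 and 75.7 CPM in EGFR/OLIG1 progenitors, and in library B EGFR/OLIG1 progenitors were the higher for all 3.

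EGFR/OLIG1 progenitors were compared with the other progenitor classes directly. Over HOPX glia they were higher for 10 of 38 members and lower for none, beside 9.06% of all genes called higher and 12.3% called lower, and 37 of 38 fitted values were positive. The median of the members was 0.50 log2 units, against -0.04 over all genes. All 3 nucleotide supply genes were among the 10. RRM2, the regulatory subunit of ribonucleotide reductase, had 285 and 303 CPM in EGFR/OLIG1 progenitors, against 189.9 and 143 CPM in HOPX glia (log2 0.76 ± 0.18, edgeR adjusted p = 0.00326). TYMS, thymidylate synthase, had 162 and 237 CPM, against 129 and 123 CPM (0.56, edgeR adjusted p = 0.00685), with 0.31 log2 units in library A and 0.93 in library B.

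Repair and fork genes made up most of the rest. BRIP1, a helicase of crosslink repair, had 20.7 and 24.4 CPM in EGFR/OLIG1 progenitors, against 11.3 and 6.85 CPM in HOPX glia (log2 1.13 ± 0.40, edgeR adjusted p = 0.0459). BLM had 34.2 and 14.7 CPM, against 15.3 and 12.6 CPM (0.94 ± 0.31, 0.0319). Its difference rested on library A, at 1.14 log2 units, against 0.19 in library B alone, and for BRIP1 the libraries gave 0.85 (A) and 1.79 (B). MCM7, a helicase subunit, had 131 and 190.5 CPM in EGFR/OLIG1 progenitors, against 92.0 and 93.2 CPM in HOPX glia (0.70 ± 0.20, edgeR adjusted p = 0.0127). CLSPN was 0.69 ± 0.24 log2 units higher (edgeR adjusted p = 0.043) and DSCC1, a clamp loader subunit, 0.65 ± 0.23 higher (0.0428). When each cell was thinned to 1500 UMIs before summing, none of 34 members tested was called, and with gates that needed 1 more marker or UMI 24 were higher. Those gates held 244 and 100 EGFR/OLIG1 progenitors, against 185 and 86 in the main gates, so they did not give a smaller class. The share of all genes called at these settings is not given.

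Over EOMES progenitors, EGFR/OLIG1 progenitors were higher for 11 of 38 members and lower for none (11.5% of all genes higher, 11% lower), with a median of 0.35 log2 units against -0.02 over all genes. Here genes of helicase loading and activation led, with 5 of 10 called. MCM6 had 86.0 and 75.7 CPM in EGFR/OLIG1 progenitors, against 44.9 and 35.8 CPM in EOMES progenitors (log2 0.96 ± 0.24, edgeR adjusted p = 0.00485). CDC6, the helicase loader, had 26.9 and 14.7 CPM, against 11.3 and 9.99 CPM (1.06 ± 0.35, 0.0307), and in library B alone it differed by 0.51 log2 units. MCM3 had 50.8 and 61.0 CPM, against 29.2 and 22.9 CPM (0.97 ± 0.31, 0.0229).

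HELLS, a chromatin remodeller tied to DNA methylation, had 109.8 and 95.2 CPM in EGFR/OLIG1 progenitors, against 55.3 and 52.0 CPM in EOMES progenitors (log2 0.93 ± 0.20, edgeR adjusted p = 0.0011). FEN1, the flap endonuclease that trims lagging strand fragments, had 42.5 and 44.0 CPM, against 20.4 and 24.97 CPM (0.95 ± 0.28, 0.0165). UNG, which removes uracil from DNA, had 24.9 and 44.0 CPM, against 16.2 and 15.4 CPM (0.92 ± 0.29, 0.0232), with 0.60 log2 units in library A and 1.47 in library B. In each of these genes both EGFR/OLIG1 libraries lay above both EOMES libraries. RRM2 did not differ in the same way, with 285 and 303 CPM in EGFR/OLIG1 progenitors against 285 and 301 CPM in EOMES progenitors (-0.01 ± 0.17, edgeR adjusted p = 0.978). With thinning before summing, 3 members were called higher, and the share of all genes called there is not given.

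HOPX glia and EOMES progenitors were close in summed level but differed in single members. Of 38 members, 6 were higher in HOPX glia (15.8%) and 10 lower (26.3%), beside 25.5% of all genes called higher and 23.1% lower. The share of members called higher was thus below that of all genes, and the share called lower was near it. The median was -0.11 log2 units (-0.21 in library B alone), against 0.00 over all genes. Higher in HOPX glia were MCM6 (72.2 and 69.0 CPM, against 44.9 and 35.8 CPM in EOMES progenitors, log2 0.76 ± 0.18, edgeR adjusted p = 0.00102), HELLS, FEN1 (0.59, and 0.28 in library B alone), UNG, GINS2 and POLA1, the catalytic subunit of polymerase alpha.

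Lower in HOPX glia were RRM2, with 189.9 and 143 CPM against 285 and 301 CPM in EOMES progenitors (log2 -0.78 ± 0.15, edgeR adjusted p = 0.000146), and RAD51AP1, a gene of recombination repair, with 42.2 and 40.03 CPM against 63.5 and 67.0 CPM (-0.65 ± 0.14, 0.00044). BLM (-0.66 ± 0.21, edgeR adjusted p = 0.00987), EXO1, an exonuclease of mismatch repair (-0.64 ± 0.24, 0.0311), and CCNE2 (-0.60 ± 0.21, 0.0244) were lower too, so that 3 of 6 repair genes were lower and 1, UNG, higher. The other 5 were PRIM1, a primase subunit, RPA2, of the single-strand binding complex, MCM7, DSCC1 and UBR7. The counts by direction changed with the setting: thinning before summing gave 6 higher and 1 lower, stricter gates 1 higher and 22 lower, and DESeq2 none higher and 2 lower. The share of all genes called at these settings is not given, so a shift of the members alone cannot be read from them. G2 and M RNA summed to 3012 and 2377 CPM in HOPX glia, against 4999 and 4817 CPM in EOMES progenitors. Its part in these differences was not tested.

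**Figure D4:**
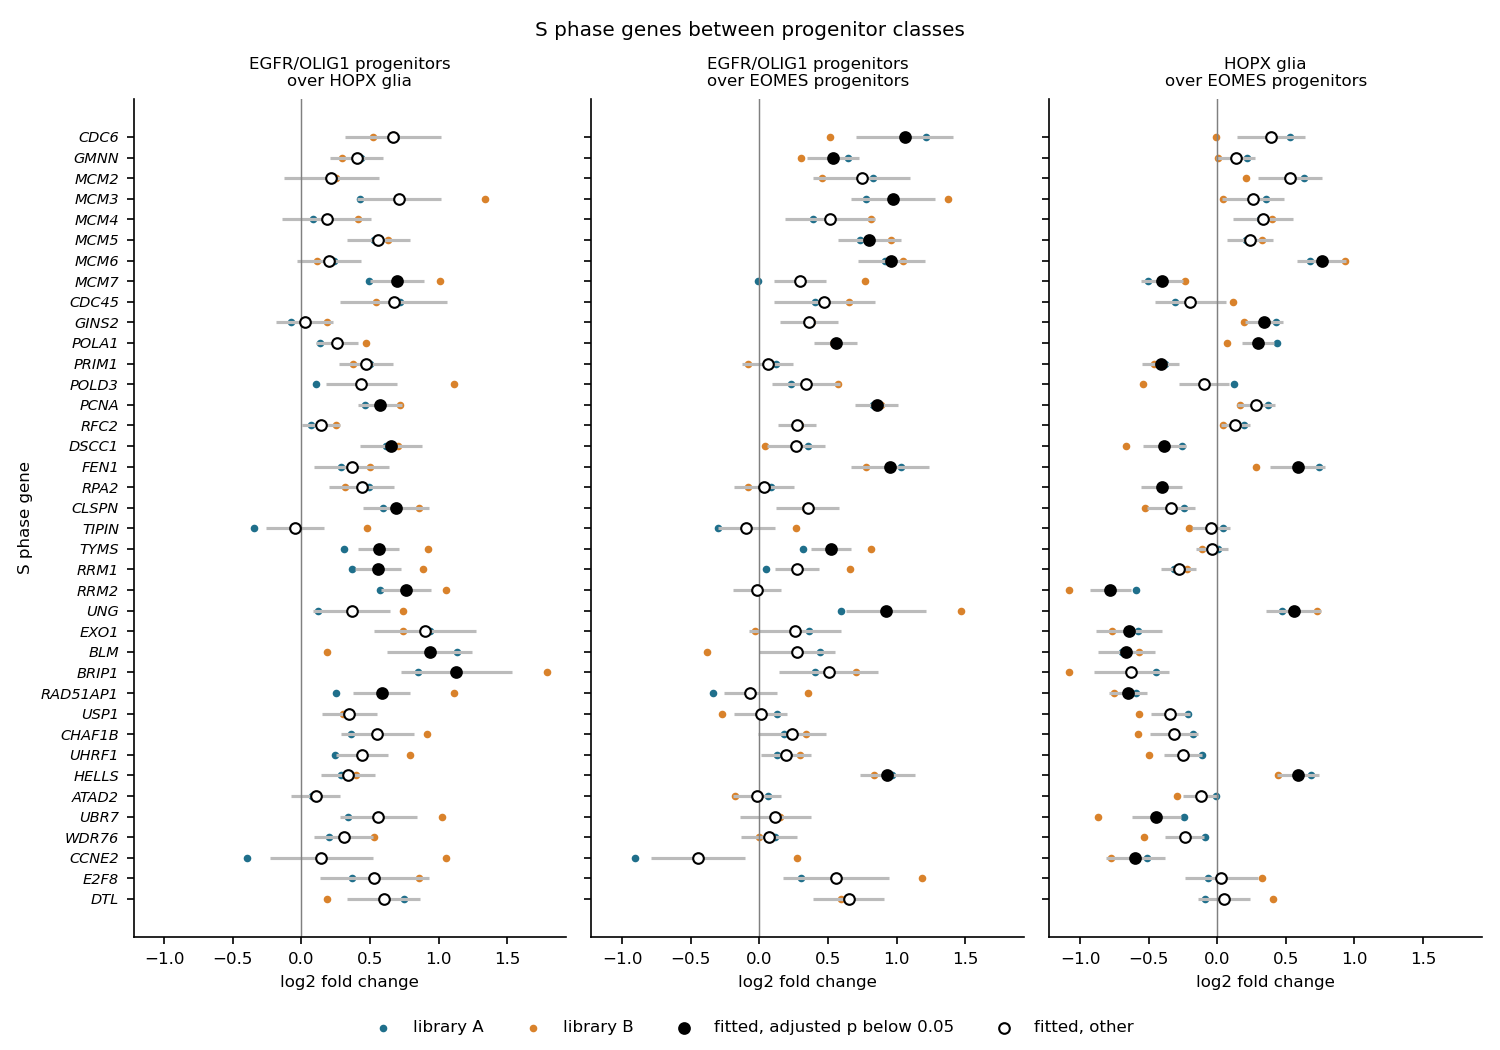
Log2 fold change of each S phase gene in the 3 comparisons between progenitor classes, with the fitted value ± SE (large points, filled where the adjusted p is below 0.05) and each library alone (small points). EGFR/OLIG1 progenitors are higher for 10 genes over HOPX glia and 11 over EOMES progenitors, while the comparison of HOPX glia with EOMES progenitors runs both ways.

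The same classes were compared among cells with 3 or more G2 and M UMIs only, which were chosen by genes outside the list. These were 50 and 23 EGFR/OLIG1 progenitors, 167 and 68 HOPX glia and 337 and 152 EOMES progenitors, and 7688 genes were tested. Within these cells the classes were not matched for the number of G2 and M UMIs. EGFR/OLIG1 progenitors were higher than EOMES progenitors for 3 of 38 members (6.91% of all genes higher, 7.62% lower): HELLS (log2 0.88 ± 0.20, edgeR adjusted p = 0.00219), POLA1 (0.74 ± 0.19, 0.00566) and PCNA, the sliding clamp (0.71 ± 0.14, 0.000417). These were 7.89% of the members, near the share of all genes called higher. Against HOPX glia no member was called by edgeR or by DESeq2 (by edgeR 5.42% of all genes were higher and 6.28% lower), and 5 had an unadjusted edgeR p below 0.05.

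HOPX glia with G2 and M RNA were higher than such EOMES progenitors for 5 members (13.2%, beside 15.9% of all genes). They were lower for 2 (5.26%, beside 17% of all genes), so both shares lay below those of all genes. The 5 were MCM6 (log2 0.92 ± 0.18, edgeR adjusted p = 7.83e-05), MCM4 (0.86 ± 0.30, 0.0238), FEN1 (0.74 ± 0.22, 0.00811), HELLS (0.62 ± 0.15, 0.00137) and PCNA (0.54 ± 0.11, 0.000282). MCM4, FEN1 and PCNA rested on library A, with 0.21, 0.25 and 0.20 log2 units in library B alone. MCM7 (-0.40) and RRM2 (-0.30, with -0.20 in library A and -0.47 in library B) were lower. With median-ratio size factors the split was 8 higher and none lower, and the share of all genes called there is not given. MCM6, FEN1 and HELLS were thus higher in HOPX glia than in EOMES progenitors in both fits, which share the cells with G2 and M RNA. Of such HOPX glia, 103 of 167 in library A and 37 of 68 in library B held 8 or more G2 and M UMIs. Of such EOMES progenitors it was 248 of 337 and 107 of 152. In the bins read below, CPM of the 5 members higher in HOPX glia fell from the next lower bin to this one. MCM7 fell too, while RRM2 rose. The part of this unequal make-up in the differences was not tested.

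Position in the cell cycle was then read across all 3 progenitor classes from the number of G2 and M UMIs per thinned cell, in bins of 0, 1 to 2, 3 to 7 and 8 or more. In library A the summed S phase level was 1088, 2264, 5313 and 3424 CPM over these bins, and in library B 1075, 2165, 4244 and 3591 CPM. S phase RNA was thus highest at an intermediate number of G2 and M UMIs in both libraries. Median depth before thinning went through 4518, 4742.5, 5587.5 and 7339 UMIs in library A, and was 4042, 3913, 4824.5 and 6256 UMIs in library B.

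All 38 members were higher at 3 to 7 than at 0 G2 and M UMIs (12.5% of 8180 genes tested were called higher), with a median of 2.14 log2 units against -0.06 over all genes. E2F8 had 1.73, 7.53, 60.0 and 33.9 CPM over the bins in library A and 0.431, 6.63, 35.1 and 35.9 CPM in library B, a difference of 5.17 ± 0.40 log2 units between 3 to 7 and 0 UMIs (edgeR adjusted p = 3.04e-12). CLSPN had 12.3, 48.0, 182 and 89.7 CPM in library A and 12.5, 46.4, 122 and 105 CPM in library B (3.64 ± 0.21, 1.66e-14). CDC45 (3.77 ± 0.33), CCNE2 (3.41 ± 0.35), EXO1 (3.29 ± 0.40) and RRM2 (2.94 ± 0.16) followed. CDC45 and CLSPN were also among the members that differed most between progenitors and neurons.

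From 3 to 7 to the highest bin the list came apart. At 8 or more G2 and M UMIs, 19 members were lower and 2 higher than at 3 to 7, beside 3.94% of all genes called lower and 5.89% higher, and the median was -0.59 log2 units against -0.01 over all genes. In library B alone the members' median was -0.27. Of the members called lower or higher, only 20 had the same sign in both libraries. Of 10 genes of helicase loading and activation, a group that includes regulators of loading, 9 were lower, with a median of -1.19. Of 10 polymerase, clamp and fork genes 4 were lower, of 3 nucleotide supply genes 1, of 6 repair genes 1, of 6 chromatin genes 2 and of 3 cell cycle regulators 2. The gene of the helicase loading and activation group that was not called was GMNN. It encodes geminin, which is no helicase subunit but the inhibitor that keeps origins from being licensed again. It had 29.9, 59.3, 138 and 97.8 CPM over the bins in library A and 33.6, 60.7, 112 and 113 CPM in library B (-0.23, edgeR adjusted p = 0.463). GMNN was named after its values were seen.

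The members that dropped most were those of uracil removal and licensing. UNG had 12.1, 29.7, 66.4 and 7.77 CPM over the bins in library A and 19.4, 39.8, 28.1 and 10.4 CPM in library B. The step between the 2 highest bins was -2.58 ± 0.33 log2 units (edgeR adjusted p = 1.45e-06). Libraries A and B gave -2.66 and -3.00 in HOPX glia, and -2.86 and -0.65 in EOMES progenitors. MCM4 had 15.9, 36.7, 74.8 and 12.7 CPM in library A and 12.9, 42.0, 30.4 and 10.4 CPM in library B (-2.26 ± 0.31, edgeR adjusted p = 4.36e-06). Its step was -2.20 and -0.55 in HOPX glia and -2.20 and -1.83 in EOMES progenitors. EGFR/OLIG1 progenitors of library A held no UMI of either gene in the highest bin, against 10 of UNG and 13 of MCM4 at 3 to 7, and the HOPX glia and EOMES progenitor sums of library B held 1 to 9 UMIs of each. In library B both genes were already highest at 1 to 2 G2 and M UMIs.

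CDC6 had 7.26, 17.4, 51.7 and 12.7 CPM in library A and 5.17, 8.84, 35.1 and 13.2 CPM in library B (-1.73 ± 0.29, edgeR adjusted p = 8.21e-05). MCM2 (-1.45 ± 0.32), MCM5 (-1.39 ± 0.28) and CHAF1B, of the chromatin assembly factor that follows the fork (-1.28 ± 0.23), were next. In library B alone MCM2 and MCM5 differed by -0.80 and -0.49 log2 units, from sums of 2 to 19 UMIs. These means hide opposite signs: MCM2 and MCM5 gave 0.74 and 0.43 in HOPX glia of library B, against -2.29 and -1.35 in its EOMES progenitors. In library A both genes were lower in both classes. PCNA had 107, 278, 679 and 268 CPM in library A and 114, 290.5, 545 and 306 CPM in library B (-1.12, edgeR adjusted p = 1.92e-06). At its lowest, in the bin without G2 and M UMIs, PCNA was still above its level in excitatory neurons, 44.3 and 53.0 CPM.

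Both members that were higher in the highest bin are repair genes. USP1 had 34.6, 43.8, 104 and 171 CPM over the bins in library A and 34.0, 44.2, 72.6 and 155 CPM in library B (log2 0.83, edgeR adjusted p = 0.000986 between the 2 highest bins). RAD51AP1 had 14.4, 34.4, 94.1 and 138 CPM in library A and 19.0, 35.3, 108 and 143 CPM in library B (0.49, edgeR adjusted p = 0.033, with 0.55 in library A and 0.31 in library B). RRM2 was also highest in the last bin in both libraries, with 527 then 597 CPM in library A and 489 then 592 CPM in library B, but was not called (0.26, edgeR adjusted p = 0.281). In library A the other 35 members were highest at 3 to 7 UMIs. In library B 25 were, while 3 (MCM4, MCM6 and UNG) were highest at 1 to 2 UMIs and 10 at 8 or more. The share of all genes highest in each bin is not given, so these counts are a description.

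**Figure D5:**
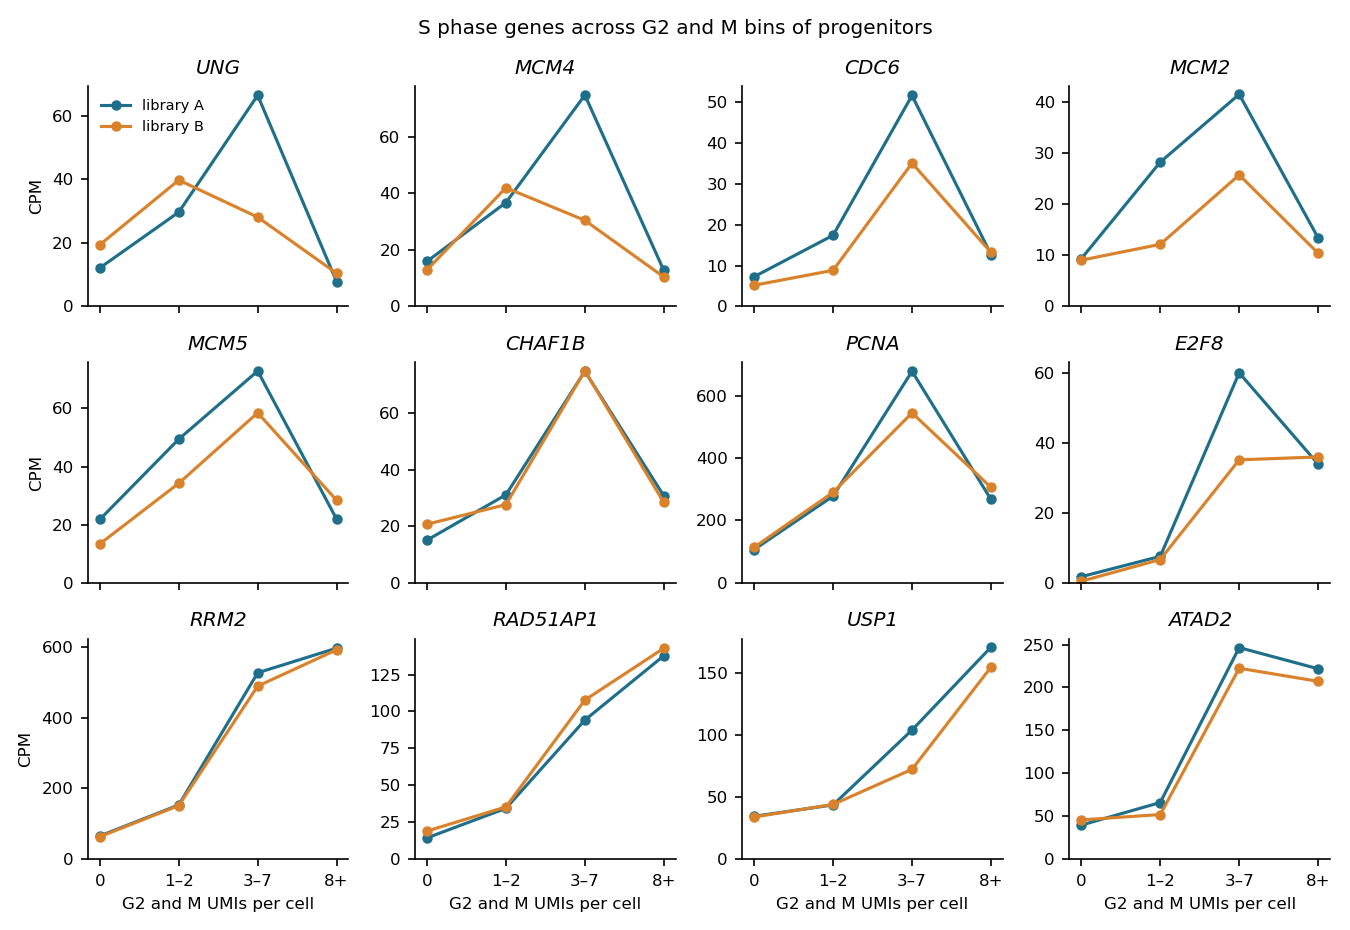
CPM of 12 S phase genes in progenitors with 0, 1 to 2, 3 to 7 and 8 or more G2 and M UMIs (x axis, each cell thinned to 1500 UMIs), one line per library, the y axis from 0. UNG, MCM4, CDC6, MCM2, MCM5, CHAF1B and PCNA drop in the last bin, while RRM2, RAD51AP1 and USP1 are highest there.

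Of 46 other replication genes tested, 43 were higher at 3 to 7 than at 0 G2 and M UMIs and none lower. At 8 or more over 3 to 7 UMIs, 10 were lower and 4 higher, with a median of -0.23 log2 units, and 32 were not called. The background is that given above for the same steps. E2F1, the factor that drives many of these genes, was lower (-1.52 ± 0.21 log2 units, edgeR adjusted p = 4.36e-06) and POLD2, a polymerase delta subunit, -1.54 ± 0.29. CCNA2 (2.05 ± 0.15) and DBF4, the partner of the initiation kinase CDC7 (edgeR adjusted p = 7.82e-09), were higher.

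Whether these steps differed between HOPX glia and EOMES progenitors was tested as an interaction, added after seeing the data. For the step to 3 to 7 UMIs, 1 of 38 members was called (2.97% of 10406 genes): RRM2, which went up by 3.49 and 3.78 log2 units in HOPX glia, against 2.65 and 2.29 in EOMES progenitors of libraries A and B (difference 1.05, edgeR adjusted p = 0.00189). HELLS came next and was not called (difference -0.98, edgeR adjusted p = 0.0549). For the step to 8 or more UMIs edgeR called no member (0.0769% of all genes), with 2 at an unadjusted p below 0.05, and no other tool was run.

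Classes other than progenitors were set against excitatory neurons in the same fit. Endothelial cells were higher for 17 of 38 members (19.1% of all genes called higher), lower for none (15.4% of all genes), with a median of 1.19 log2 units against -0.03 over all genes. Genes of helicase loading and activation made up 6 of the 17. MCM6 had 144 and 42.2 CPM in endothelial cells, against 9.25 and 13.8 CPM in excitatory neurons (log2 2.77 ± 0.40, edgeR adjusted p = 5.42e-06). CDC45 had 33.3 and 14.9 CPM, against 1.15 and 2.73 CPM (3.61 ± 0.72, 0.000259), and MCM3 66.6 and 19.8 CPM, against 2.97 and 6.26 CPM (3.10 ± 0.63, 0.000359).

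The endothelial levels in library A were the higher in most members and rest on 329 member UMIs in 59 cells, against 475 in 173 cells of library B. In library B alone MCM6, MCM3, CDC45 and CDC6 differed from excitatory neurons by 1.60, 1.64, 2.38 and 1.89 log2 units, against 3.85, 4.32, 4.58 and 3.99 in library A. G2 and M RNA summed to 1043 and 1297 CPM in endothelial cells, below the 2377 to 4999 CPM of the 3 progenitor classes. At equal depth, however, 27.1% and 34.1% of endothelial cells held 3 or more G2 and M UMIs, against 17.6% to 30.2% of progenitors. The 5 HOPX glia markers summed to 838 and 967 CPM in endothelial cells. GINS2 and GMNN stood low in the same cells, at 5.55 and 12.4 CPM and at 11.1 and 17.4 CPM, and were not called. A fit of these 2 classes alone called 9, and the share of all genes it called is not given.

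Microglia were higher for 9 of 38 members, beside 19.7% of all genes called higher, and lower for none (15.7% of all genes). Their median was 0.74 log2 units, but 0.25 in library A alone, where members without a UMI enter through a prior count of 0.5. Markers of other classes were also lower in library A, with 170.3 and 334 CPM for HOPX glia markers and 6.31 and 64.5 CPM for endothelial markers in libraries A and B, and their part was not tested. CLSPN had 22.1 and 40.3 CPM in microglia, against 3.98 and 7.39 CPM in excitatory neurons (log2 2.73 ± 0.58, edgeR adjusted p = 0.00054), and CHAF1B 9.46 and 32.2 CPM, against 5.06 and 5.62 CPM (2.06 ± 0.56, 0.00503, with 1.12 in library A and 2.62 in library B). MCM2, MCM4, CDC45 and BRIP1 had no UMI in microglia of library A, where 3 UMIs correspond to 9.46 CPM. A fit of these 2 classes alone called 3, and the share of all genes it called is not given. Inhibitory neurons were higher for 10 members (11.1% of all genes) and lower for none (10.7%), with a median of 0.56 log2 units (0.86 in library B alone).

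In inhibitory neurons the member that stood out was POLA1. It had 130.5 and 114 CPM in inhibitory neurons, against 54.4 and 56.0 CPM in excitatory neurons (log2 1.15 ± 0.13, edgeR adjusted p = 1.07e-07), and its range overlapped that of EGFR/OLIG1 progenitors, at 114 and 125 CPM. PRIM1, the primase that works with it, had 24.9 and 46.0 CPM in inhibitory neurons, against 27.3 and 27.9 CPM in excitatory neurons, and was not called. CLSPN (1.63 ± 0.36, edgeR adjusted p = 0.0013), EXO1 (1.52 ± 0.44, 0.0128) and GINS2 (1.35 ± 0.33, 0.00355) were higher as well, with 2.05, 2.37 and 2.04 log2 units in library B and 1.43, 1.03 and 0.99 in library A. Library B also had the larger share of inhibitory neurons with S phase RNA. The HOPX glia markers in inhibitory neurons were at 61.2 CPM in library A and 206 CPM in library B, and EGFR and OLIG1 together at 37.6 and 80.1 CPM. Their part in the library difference was not tested.

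Under the main gates oligodendrocyte precursors and mural cells had fewer than 20 cells in a library. There they were tested only with sums of at least 10 cells, chosen after seeing the data. Gates that needed 1 more marker or UMI held 49 and 20 precursors, and their count over excitatory neurons is given at the end. Precursors were lower than EGFR/OLIG1 progenitors for 4 of 37 members tested (3.44% of all genes called lower, 4.14% higher): PCNA, TYMS, RRM1 and RRM2, at -0.99, -1.02, -1.51 and -1.11 log2 units, with RRM2 at -0.59, TYMS at -1.72 and RRM1 at -0.90 in library B alone. Over excitatory neurons they were higher for 15 (9.45% of all genes), and mural and fibroblast cells for 2 (9.46% of all genes), MCM3 and CLSPN. The library B sums of both classes hold 10 cells each.

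Among the 10 genes outside the list whose levels followed the summed members most closely over the 14 class and library sums were SIVA1 (Pearson r = 0.97), NCAPD2, a condensin subunit (0.97), MIS18A, of centromere assembly (0.96), NMRAL1 (0.96), NOTCH1, the receptor that keeps radial glia undifferentiated (0.96), GINS1, another GINS subunit (0.96), CCND2 (0.95), PIMREG (0.95) and MRPL36 (0.95). The measure is over log2(CPM + 10) among 7534 genes with a mean of at least 20 CPM. The sums share 2 libraries and differ in depth, so the values are a description.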

How the data were processed

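The authors deposited a single matrix of raw UMI counts (genes by cells) that pools the replicates, made with Cell Ranger per the submitters' processing notes (version and genome build not given in the sources used here), with no normalization. The lowest cell held 1501 UMIs, so cells had been filtered before deposit. A further filter (a minimum of 500 genes, a maximum of 10% mitochondrial RNA) took out 14 of 14787. Scrublet called 1 doublet, so the caller did not separate doublets, and removal of the 496 kept cells with a score above 0.2 was an alternative. Of the kept cells 2932 passed no gate and 1450 the gates of several lineages. These entered no comparison.

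For the tests, counts were added up within each class of each library that held 20 cells or more, and compared with edgeR 4.0.16 in R 4.3.3 (quasi-likelihood, TMM scaling, filterByExpr, library as a block, Benjamini-Hochberg adjustment over all genes tested). The fits had 6 residual degrees of freedom for classes, 4 for cells with G2 and M RNA and 12 for bins. The bin fit took each class of each library as a block, so its spread also holds differences between classes of the same library. The library is the same sample across classes, which is where the pairing comes from. SEs are the log2 fold change over the square root of F. Values of a library alone use a prior count of 0.5, and for bins are means over classes. The bin fit held EGFR/OLIG1 progenitors of library B only in the lowest bin, while CPM by bin include all cells. DESeq2 1.42.0, scanpy 1.11.5, numpy 2.4.6 and scipy 1.17.1 (Python 3.11.15) were also used, and the fits were tested on simulated data. Intervals cover counting error only.

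Named with full statistics were up to 6 members per comparison of the largest change called with 1 sign in both libraries, up to 4 called genes of each other list, and the 10 genes most like the summed members, 1 of which is not reported here. Members and lists were chosen with earlier results of these data known.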

Additional observations from a re-analysis of the deposited data

Results flagged for a closer look

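The step in RRM2 between 0 and 3 to 7 G2 and M UMIs was larger in HOPX glia than in EOMES progenitors by 1.05 log2 units, by an interaction test (edgeR adjusted p = 0.00189, higher in both libraries). RRM2 was the 1 member of 38 called, beside 2.97% of 10406 genes, so the count does not exceed the share over all genes.

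S phase RNA was also present in cells that entered no comparison. Among cells in no gate, 22.6% in library A and 24.7% in library B held 3 or more member UMIs after thinning, against 6.70% and 7.60% of excitatory neurons. Among cells in the gates of several lineages the shares were 33.6% and 30.1%. The mean doublet score of those cells was 0.0930 and 0.0853, and its part in the share was not tested.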

How the results depend on the processing

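Leaving out 1 of 2 libraries leaves no residual degrees of freedom among libraries (in the bins, among classes only), so it gives values without a test. The share with S phase RNA then ranged over 36.2% to 48.8% in EGFR/OLIG1 progenitors, 30.8% to 33.7% in HOPX glia and 28.4% to 29.9% in EOMES progenitors, and the summed level over 2804 to 3045, 1883 to 2177 and 2182 to 2209 CPM. With a second random thinning the 2 libraries of EGFR/OLIG1 progenitors gave 41.6% and 41.9%. The median of members in HOPX glia over EOMES progenitors with G2 and M RNA ranged from -0.034 without library A to 0.19 without library B. Of 658 values of named members under alternatives, 589 stayed called in the same direction, 69 were no longer called and 0 reversed. These members were named because they were called with 1 sign in both libraries, so reversals were unlikely from the start. The tally also pools large differences from neurons with the smaller ones between progenitor classes, and is no test of stability. Of 122 counts, 105 stayed within 1.5 times.

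Without the library block, HOPX glia over EOMES progenitors had 10 members called (4 higher, 6 lower). Gates on thinned counts gave the same 10 in number, and thinning before summing 7 (6 higher, 1 lower), which turned the balance. DESeq2 called 2 there (none higher), 2 in EGFR/OLIG1 progenitors over HOPX glia, 6 in EGFR/OLIG1 over EOMES progenitors and 2 in HOPX glia over EOMES progenitors with G2 and M RNA. EGFR/OLIG1 progenitors over HOPX glia had 4 with no filter on low counts, 24 with stricter gates and 0 with thinning before summing, and over EOMES progenitors 3 with that thinning. Inhibitory neurons had 5 with gates on thinned counts and 4 with thinning before summing, microglia 5 with that thinning and 3 when fitted with excitatory neurons alone, endothelial cells 9 in such a fit, and oligodendrocyte precursors 23 over excitatory neurons with stricter gates. The cause was not tested, and no share of all genes is given beside these counts.

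The share moved with its threshold. At 2, and at 6, UMIs it was 53.2% and 25.2% in EGFR/OLIG1 progenitors, 44.9% and 17.0% in HOPX glia and 42.3% and 17.2% in EOMES progenitors. At 4 UMIs it was 24.6% in HOPX glia and 23.7% in EOMES progenitors, and without thinning the 3 classes gave 62.5%, 64.4% and 57.1%. Stricter gates gave 27.1% in HOPX glia and 35.0% in EOMES progenitors, and scanpy's phase call 22.7% in EOMES progenitors, against 24.8% in inhibitory neurons and 17.4% in excitatory neurons, so that by that call EOMES progenitors lay below inhibitory neurons. Summed CPM without RRM2 was 2631 in EGFR/OLIG1 and 1903 in EOMES progenitors, and with thinning before summing 2436 and 1829. That thinning gave 1882 CPM in HOPX glia, above EOMES progenitors, where the main sums had HOPX glia below. Stricter gates gave 1735 CPM in HOPX glia and 2413 in EOMES progenitors, where removing high doublet scores gave 2246. With the main gates, precursor and mural comparisons under the planned minimum of 20 cells, and endothelial cells with G2 and M RNA, were not run because too few cells were present.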
